A study of Sus scrofa with 22 samples.

Results

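Transcripts of 9 genes that dividing cells make in S phase, G2 and mitosis were followed through 4 ages of pig tissue: UBE2C, CKS2, CCNB1, AURKB, TOP2A, CENPF, NUSAP1, CDKN3 and TYMS. The genes were chosen by name, as all probe sets that the array annotation ties to exactly 1 of these symbols. This gave 12 probe sets of the 23999 tested, and 9 genes of the 6765 named on the array. UBE2C, NUSAP1 and TYMS had 2 probe sets each, and the values below are those of the probe set with the higher mean signal unless the other one is named.

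The animals were offspring of German Landrace gilts, and all of them shared 1 maternal treatment, a gestation diet with an adequate protein level (AP). Age was the only difference between the 4 groups that the labels give, and they name no sex, litter or array batch. The groups were 6 fetuses at 94 days post conception (94 dpc), 6 newborns at 1 day after birth (1 dpn), 6 piglets at 28 days (28 dpn) and 4 pigs at 188 days (188 dpn). RNA measures of the 1 dpn arrays also varied, as described below. The sample labels give the tissue as liver, but the title of the series speaks of muscle. By mean signal the brightest named genes were MYL1 and MYLPF, both myosin light chains (68608 and 61530), the tropomyosin TPM1 (62952), GAPDH (61720) and the creatine kinase of muscle, CKM (61521). A list of skeletal muscle markers held 7 of the 30 brightest and a list of hepatocyte markers 0, so the signals go against the liver label. At each stage the young came from 3 gilts, but no source used here ties an animal to its dam. Adjusted p-values therefore treat littermates as independent animals.

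Cells that divide copy their DNA in S phase, check and condense it in G2, and part it in mitosis, and the transcripts for each phase are made in that phase and destroyed or silenced afterwards. Cells that have left the cycle, such as the nuclei of a mature muscle fibre, keep these transcripts low. In growing skeletal muscle the dividing cells are mainly myogenic progenitors (satellite cells), fibroblasts and endothelial cells, and their number and pace fall as an animal matures. A bulk sample holds all of these cells together, so fewer dividing cells and less of a transcript per cell cannot be told apart here.

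All 9 genes were called lower at 188 dpn than at 94 dpc, where 22.5% of all probe sets were, and 8 of the 9 were already called lower at 1 dpn, where 21.7% were. CDKN3, which codes for a phosphatase that switches off cyclin-dependent kinases, was the exception, with its highest level at 1 dpn. From 1 dpn to 28 dpn 5 genes rose again (13.9% of all probe sets were called higher) and CDKN3 fell, and from 28 dpn to 188 dpn 6 genes fell (8.2% of all were called lower). Over the 4 stages together every one of the 9 genes differed (limma F test, highest adjusted p = 3.63e-05, for CENPF), in an experiment in which 51.4% of all probe sets did.

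**Figure D1:**
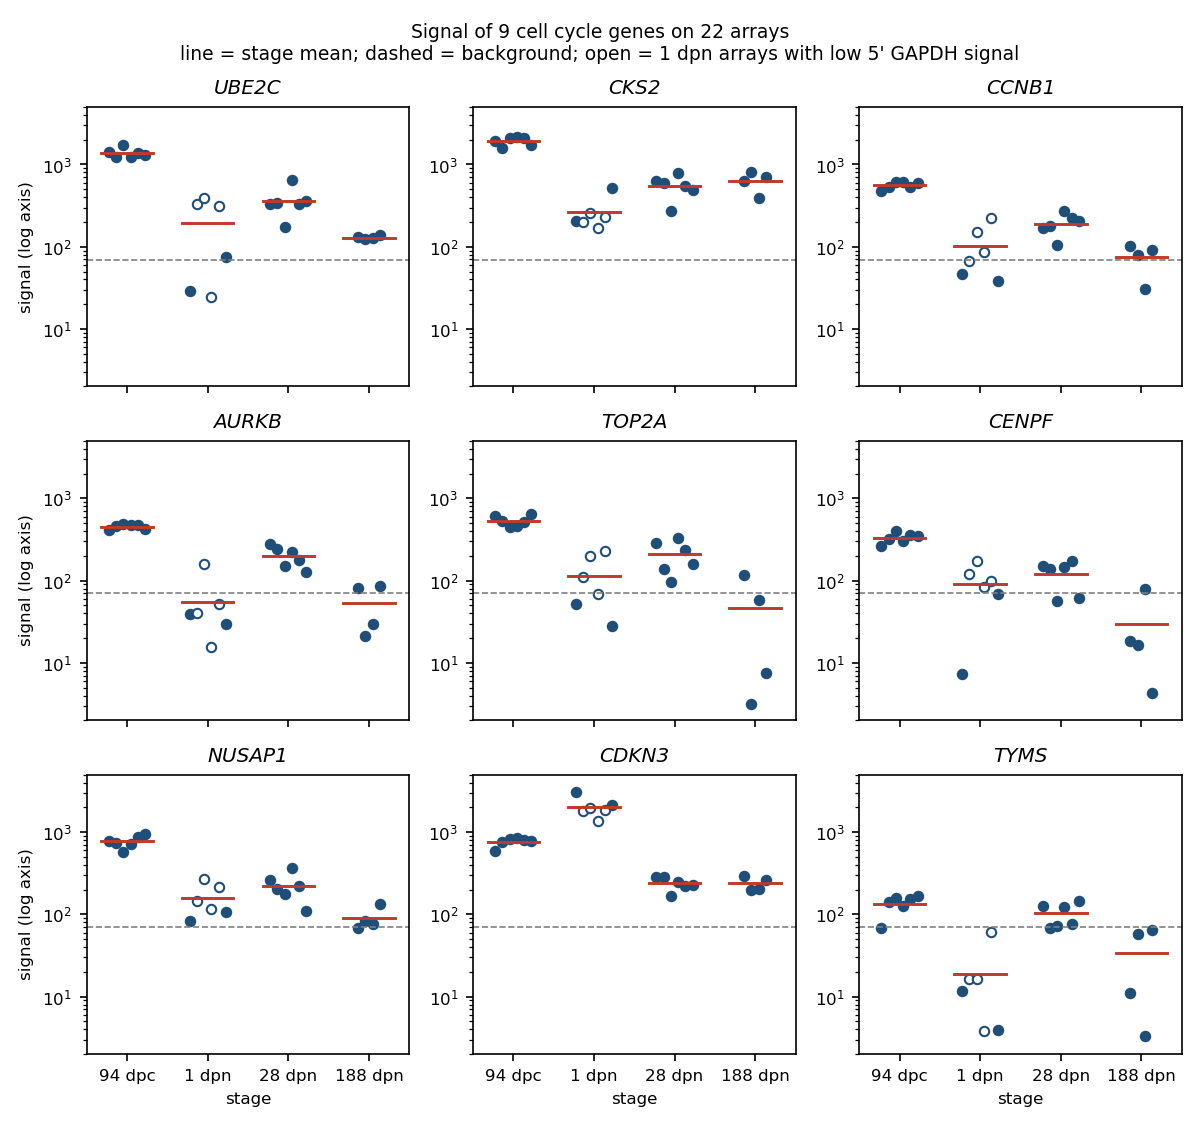
Signal of each gene on each of the 22 arrays on a log axis, by stage, with 1 point per animal and a line at the stage mean. The dashed line is the background signal of 69.7, and open points mark the 4 arrays of 1 dpn with low 5' GAPDH signal. All 94 dpc points lie above all 188 dpn points for every gene, and CDKN3 alone is highest at 1 dpn. For TYMS the lowest 94 dpc point and all 188 dpn points lie below background.

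Background was a signal of 69.7, the 95th percentile of 23 control probe sets without a target in the samples. At 94 dpc 53 of the 54 values of the 9 genes lay above it. The counts were 33 of 54 at 1 dpn, 51 of 54 at 28 dpn and 22 of 36 at 188 dpn. Low values at 1 dpn and 188 dpn therefore often have only an upper bound. Values also spread more at those ages. The median SD of the 9 genes was log2 0.18 at 94 dpc, below the 0.30 of all probe sets, but 0.83 at 1 dpn, 0.50 at 28 dpn and 0.61 at 188 dpn, where all probe sets had 0.59, 0.42 and 0.40. Since many of these values were below background, the SD does not measure differences between animals alone. CKS2, NUSAP1 and CDKN3, above background on every 1 dpn array, had SDs of log2 0.54, 0.58 and 0.38 there. UBE2C, CKS2 and CDKN3, above background on every 188 dpn array, had 0.06, 0.44 and 0.27 there.

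The genes that start and carry out mitosis are described first. CCNB1 codes for cyclin B1, the partner with which the kinase CDK1 drives cells into mitosis. Its signal was 480 at the lowest, 561 at the median and 609 at the highest among the 6 fetuses, and 38.4, 77.0 and 226 among the 6 newborns. At 28 dpn the corresponding values were 104, 193 and 268, and the 4 pigs of 188 dpn had 102, 79.9, 30.7 and 91.1. The fetal range stood clear of every later one, while the newborn range took in most of those at 28 dpn and 188 dpn. Only 3 of the 6 newborn values lay above background, so the sizes of the steps to and from 1 dpn are not exact. CCNB1 fell 5.57-fold from 94 dpc to 1 dpn (log2 -2.48, SE 0.31, limma adjusted p = 2.76e-06). It then rose 1.95-fold to 28 dpn (log2 0.96, SE 0.31, limma adjusted p = 0.028) and fell 2.31-fold to 188 dpn (log2 -1.21, SE 0.35, limma adjusted p = 0.025). These last 2 calls were marginal: under median centring of the arrays the limma adjusted p was 0.0656 and 0.052.

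CKS2 codes for a small subunit that binds cyclin-dependent kinases and helps them to act on their targets. Its fetal signals were 1578 at the lowest, 2000.2 at the median and 2163 at the highest. Among newborns these values were 170, 218 and 513, and at 28 dpn they were 275, 575 and 785. The 4 pigs of 188 dpn had 635, 807, 393 and 698, which overlaps the range of the piglets. CKS2 fell 7.41-fold to 1 dpn (log2 -2.89, SE 0.25, limma adjusted p = 3.8e-08) and rose 2.10-fold to 28 dpn (log2 1.07, SE 0.25, limma adjusted p = 0.00352). Between 28 dpn and 188 dpn its difference was log2 0.20, with a 95% interval from -0.38 to 0.79 (limma adjusted p = 0.724). It was the single gene of the 9 called higher at 188 dpn than at 1 dpn (log2 1.27, SE 0.28, limma adjusted p = 0.00129). A share of 14.2% of all probe sets was called higher between these ages.

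AURKB codes for Aurora B, the kinase of the chromosomal passenger complex that corrects faulty attachments of chromosomes to the spindle. Its fetal signals were the tightest of the set, from 415 through a median of 461 to 485, a coefficient of variation of 6.30%. In newborns they ran from 15.7 through 39.5 to 157, and 5 of the 6 were below background. Piglets had 128, 201 and 279, and the pigs of 188 dpn had 80.9, 21.3, 29.3 and 84.7. The mean signal therefore went from 452 (SD 28.5) to 55.4 (SD 51.3), back to 199.7 (SD 57.6) and down to 54.1 (SD 33.4). All 3 steps passed the test (limma adjusted p = 4.43e-07, 3e-04 and 0.00272). The newborn mean and the mean at 188 dpn both lay below background, so their order is not known.

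CENPF and NUSAP1 work where chromosomes meet the spindle, CENPF as a protein of the kinetochore and NUSAP1 as a protein that bundles spindle microtubules. CENPF had fetal signals of 264, 336 and 400 as lowest, median and highest, newborn signals of 7.40, 90.4 and 171, and piglet signals of 56.6, 142 and 175. Of the pigs at 188 dpn 3 had 18.7, 16.3 and 4.24, below background, and 1 had 78.0. CENPF fell 3.79-fold from 94 dpc to 1 dpn (log2 -1.92, SE 0.40, limma adjusted p = 0.000806). Its mean signal fell from 121 (SD 49.5) at 28 dpn to 29.3 (SD 33.1) at 188 dpn, with a limma adjusted p = 0.0132. The difference between 1 dpn and 28 dpn was log2 0.50 (95% interval -0.34 to 1.33, limma adjusted p = 0.426), so no rise was shown for CENPF.

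NUSAP1 had fetal signals from 576 to 942, newborn signals from 84.0 to 272, piglet signals from 110 to 367 and signals from 68.2 to 134 at 188 dpn. It fell 4.83-fold to 1 dpn (log2 -2.27, SE 0.26, limma adjusted p = 1.08e-06) and 2.18-fold from 28 dpn to 188 dpn (log2 -1.12, SE 0.29, limma adjusted p = 0.0142). Between 1 dpn and 28 dpn its difference was log2 0.49 (SE 0.26, limma adjusted p = 0.201). A second NUSAP1 probe set was dimmer, with means of 300 (SD 85.2), 119 (SD 32.6), 117 (SD 41.8) and 94.8 (SD 41.1) from the youngest to the oldest group. It also fell to 1 dpn (log2 -1.23, SE 0.26, limma adjusted p = 0.000942). Its late difference, log2 -0.28 from 28 dpn to 188 dpn (limma adjusted p = 0.618), was not called, so the late fall of NUSAP1 rests on 1 of its probe sets.

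TOP2A codes for topoisomerase II alpha, which untangles the copied DNA strands so that chromosomes can condense and separate. The fetuses had 445, 520 and 648 as lowest, median and highest signal, the newborns 27.7, 90.1 and 230, and the piglets 97.1, 196 and 333. The 4 pigs of 188 dpn had 117, 3.20, 57.3 and 7.49, and 3 of them were below background. TOP2A fell 5.00-fold to 1 dpn (log2 -2.32, SE 0.44, limma adjusted p = 0.000315). Its mean signal fell from 208 (SD 91.1) at 28 dpn to 46.3 (SD 53.2) at 188 dpn, with a limma adjusted p = 0.00531. The difference from 1 dpn to 28 dpn was log2 0.93, and its unadjusted 95% interval from 0.01 to 1.85 almost touched 0 (limma adjusted p = 0.142).

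UBE2C codes for the ubiquitin-conjugating enzyme through which the anaphase-promoting complex marks cyclin B and other mitotic proteins for destruction, so it belongs to the exit from mitosis. Fetal signals were 1218 at the lowest, 1348 at the median and 1714 at the highest. Newborn signals fell into separate levels, with 28.6, 24.2 and 75.8 in replicates 1, 4 and 6 against 329, 389 and 312 in replicates 2, 3 and 5. Their SD of log2 1.54 was the highest of any gene of the 9 at any age. Only 4 of the 6 newborn values lay above background, so the sizes of differences from 1 dpn are not exact. Piglets had 172, 333 and 657 as lowest, median and highest, and the 4 pigs of 188 dpn lay close together at 130, 123, 126 and 138. From 94 dpc to 1 dpn UBE2C fell 9.91-fold (log2 -3.31, SE 0.47, limma adjusted p = 1.19e-05), and no newborn reached the lowest fetus. The rise to 28 dpn was 2.53-fold (log2 1.34, SE 0.47, limma adjusted p = 0.043), and leaving out 1 newborn (replicate 1, 4 or 6) brought the limma adjusted p to 0.105, 0.117 and 0.0843. From 28 dpn to 188 dpn every pig was below every piglet, yet the difference of log2 -1.29 (SE 0.52) was not called (limma adjusted p = 0.12). With only these 2 stages in the fit, and so without the wide newborn spread, its limma adjusted p was 0.0163. The second UBE2C probe set had mean signals between 44.3 and 56.5 at the 4 ages, all below background, and showed no difference (limma F test, adjusted p = 0.929).

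TYMS stands for S phase: thymidylate synthase makes the thymidine nucleotide that DNA copying needs. Fetal signals were 67.7 at the lowest, 147 at the median and 166.5 at the highest, newborn signals were 3.84, 13.9 and 60.9, and piglet signals were 69.0, 101 and 145. The pigs of 188 dpn had 11.1, 58.3, 3.31 and 64.4. All newborns and all 188 dpn pigs were below background, so only bounds can be given. TYMS fell at least 1.71-fold to 1 dpn (limma adjusted p = 4.17e-05), rose at least 1.34-fold to 28 dpn (limma adjusted p = 0.000497) and fell at least 1.34-fold to 188 dpn (limma adjusted p = 0.0188). It was also the single gene of the 9 not called lower at 28 dpn than at 94 dpc (log2 -0.35, 95% interval -1.09 to 0.38, limma adjusted p = 0.487). The second TYMS probe set had mean signals between 7.53 and 42.9, below background, and showed no difference (limma F test, adjusted p = 0.219).

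CDKN3 followed another course. The gene codes for a dual-specificity phosphatase that removes the activating phosphate from CDK1 and CDK2, and its transcript is otherwise known to rise in cycling cells. Fetal signals were 589, 784 and 839 as lowest, median and highest. The newborns had 1376, 1898 and 3085, so that the lowest newborn exceeded the highest fetus. Piglets had 167, 236 and 284, and the pigs of 188 dpn had 294, 196, 204 and 263. CDKN3 rose 2.57-fold from 94 dpc to 1 dpn (log2 1.36, SE 0.18, limma adjusted p = 5.96e-06), fell 7.94-fold to 28 dpn (log2 -2.99, SE 0.18, limma adjusted p = 2.81e-10) and stood at log2 0.01 from 28 dpn to 188 dpn (95% interval -0.41 to 0.43, limma adjusted p = 0.984). It was the single gene of the 9 with a higher level at 1 dpn, and all 6 newborns showed it. Its level at 188 dpn was 3.06-fold below that at 94 dpc (log2 -1.61, SE 0.20, limma adjusted p = 1.42e-06). Only 1 probe set measures the gene here.

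**Figure D2:**
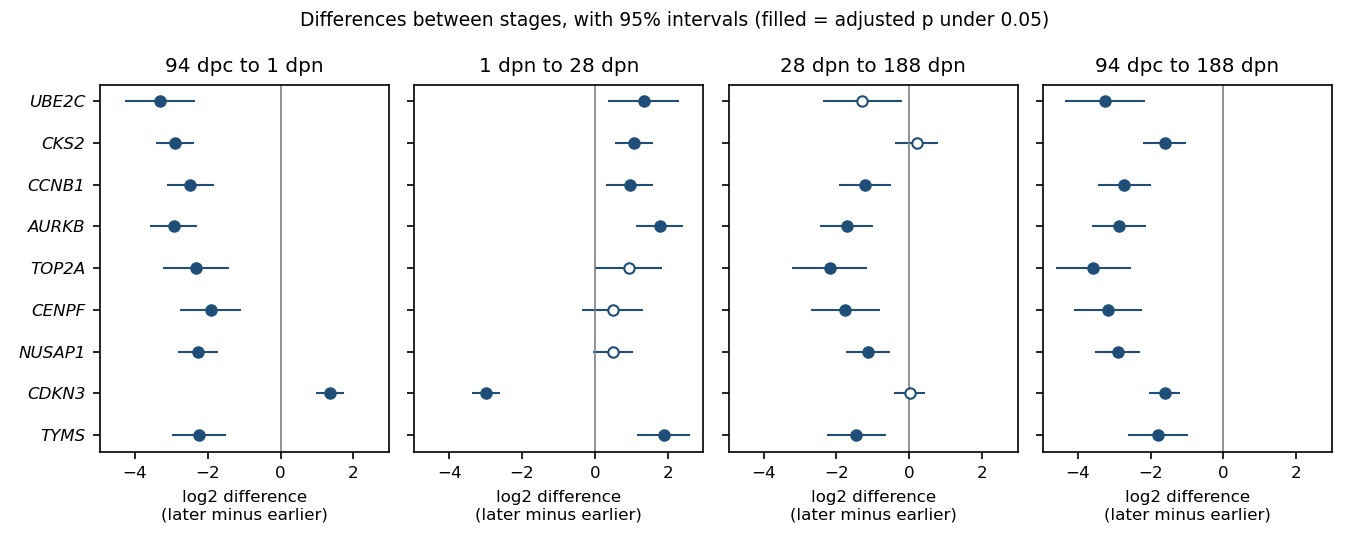
Difference between stages for each gene on the log2(signal + 16) scale, later minus earlier, with 95% intervals from limma; filled points passed an adjusted p of 0.05. From 94 dpc to 1 dpn every gene but CDKN3 lies left of 0, from 1 dpn to 28 dpn CDKN3 alone does, and from 94 dpc to 188 dpn all 9 do. Differences that involve AURKB or TYMS at 1 dpn or 188 dpn, or TOP2A or CENPF at 188 dpn, rest on stage means below background, and their plotted size is not exact.

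Set against the array as a whole, the first step gave 8 of 9 genes lower, where 21.7% of all probe sets were called lower, and 1 of 9 higher, where 10.9% were. In all 9 genes the fetal and newborn ranges did not overlap. The share of all probe sets with separate ranges was not counted for this or any other pair of stages. Counts of separate ranges, here and below, therefore only describe the 9 genes and cannot set them apart from other genes. For TYMS the lowest fetus (67.7) and the highest newborn (60.9) were both below background, so its gap is not informative. The median difference of the 9 was log2 -2.32, against -0.08 for all probe sets. These shares depend on the scaling of the arrays: they were 15.8% lower and 14.3% higher under quantile normalization, and 14.1% and 19.2% under median centring of the arrays. Both scalings gave the same counts for the 9 genes, with medians of log2 -2.07 and -2.06 against 0.05 and 0.18 for all probe sets.

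From 1 dpn to 28 dpn 5 of 9 genes were called higher (UBE2C, CKS2, CCNB1, AURKB and TYMS), where 13.9% of all probe sets were, and CDKN3 was called lower, as were 8.39%. The other 3 (TOP2A, CENPF and NUSAP1) were not called. The ranges were apart for TYMS and CDKN3 and overlapped for the other 7. The TYMS gap lay below background, between 60.9 in the highest newborn and 69.0 in the lowest piglet. The median was log2 0.96, against 0.10 for all probe sets. The count of 5 became 3 under quantile normalization, under median centring, with only these 2 stages fitted, and without any 1 of the arrays 1 and 6 of 1 dpn or 4, 5 and 6 of 28 dpn. AURKB, CKS2 and TYMS carried the 3 calls after both scalings. The shares of all probe sets called lower and higher in this step were 11.1% and 11.1% under quantile normalization, and 13.9% and 9.17% under median centring.

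From 28 dpn to 188 dpn 6 of 9 genes were called lower (CCNB1, AURKB, TOP2A, CENPF, NUSAP1 and TYMS), against 8.2% of all probe sets, and 0 were called higher, against 3.65%. The remaining 3 were UBE2C, CKS2 and CDKN3. Ranges were apart for UBE2C, CCNB1, AURKB and TYMS, although the TYMS gap (69.0 to 64.4) lay below background. The median was log2 -1.29, against -0.12 for all probe sets. Under quantile normalization 5 genes were called lower, where 6% of all probe sets were called lower and 4.75% higher, and under median centring 5 were, where 4.77% and 7.18% were. Between the first and the last age 9 of 9 were called lower and 0 higher, where 22.5% of all probe sets were called lower and 13.6% higher. No range of the 9 overlapped, although the TYMS gap (67.7 to 64.4) lay below background. The median over that span was log2 -2.87, against -0.07 for all probe sets. All 9 were also called lower under both scalings, although the shares of all probe sets then were 18.1% lower and 17.2% higher under quantile normalization, and 16.6% and 21.3% under median centring.

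The order of the stages also needs the 2 remaining pairs. From 94 dpc to 28 dpn 8 of 9 genes were called lower, against 17.2% of all probe sets, and among them were UBE2C, CKS2, CCNB1 and AURKB, which rose from 1 dpn to 28 dpn. For TYMS no difference was called, which does not show that it was back at its fetal level. Differences of the 8 ran from log2 -1.16 for AURKB to -1.97 for UBE2C. Between 1 dpn and 188 dpn 2 genes were called lower, CDKN3 (log2 -2.98, SE 0.20, limma adjusted p = 7.79e-10) and CENPF (mean signal 91.4 to 29.3, the latter below background, limma adjusted p = 0.0395), against 15.7% of all probe sets. CKS2 was called higher and the other 6 were not called. For CDKN3 the fetal mean of 760 lay between those of 1 dpn and 188 dpn, and for CKS2 the mean of 555 at 28 dpn did. For TOP2A the missing call is no sign of like levels, since its unadjusted 95% interval ran from log2 -2.28 to -0.22. For UBE2C the difference was log2 0.05, with a 95% interval from -1.03 to 1.14, which leaves room for changes of either sign.

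The newborn arrays need a separate look, because their RNA measures varied. The ratio of 5' to 3' signal of a GAPDH control set, which falls when RNA is broken or copied incompletely, was 1.14 and 1.15 on arrays 1 and 6 of 1 dpn. On arrays 2 to 5 it was 0.332, 0.223, 0.261 and 0.140. All arrays of the other stages lay between 0.731 and 1.26. The ratio of the elongation factor control EF1A divided the newborn arrays in the same way, with 0.905 and 0.786 on arrays 1 and 6 and 0.102 to 0.146 on the other 4. A second GAPDH control set separated them less, at 0.496 to 0.941 against 0.584 to 0.839 at the other stages. The mean level of the 8 genes without CDKN3 on arrays 1 to 6 was log2 5.88, 6.85, 7.51, 6.12, 7.40 and 6.24. The 2 highest, arrays 3 and 5, were thus among those with low 5' signal, while array 4 had low 5' signal and a low level.

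With only arrays 1 and 6 for 1 dpn, the first step again gave 8 genes lower and CDKN3 higher, with a median of log2 -2.96. Of all probe sets 17.6% were then called lower and 7.79% higher. CDKN3 then differed by log2 1.74 (SE 0.23). On these 2 arrays the signals of CCNB1 (46.0 and 38.4), AURKB (38.8 and 29.3), TOP2A (51.5 and 27.7), CENPF (7.40 and 68.5) and TYMS (11.6 and 3.88) were all below background, as was 1 of those of UBE2C (28.6 and 75.8), so the sizes of their differences from other stages are not exact. With only arrays 2 to 5 the counts were again 8 and 1, beside 22.8% and 13.3% of all probe sets, with a median of log2 -2.04. For the second step 7 genes were called higher at 28 dpn when arrays 1 and 6 stood for the newborns. Of all probe sets 11.2% were then called higher and 5.39% lower. NUSAP1 was among the 7 (log2 1.04, SE 0.32, limma adjusted p = 0.0327), and CENPF passed by the narrowest margin (limma adjusted p = 0.04997). CKS2 was then not called (log2 0.68, limma adjusted p = 0.217). On arrays 2 to 5 only 3 genes were called higher, AURKB, CKS2 (log2 1.26, SE 0.24) and TYMS, and CENPF stood at log2 -0.02. Of all probe sets 15.8% were called higher and 11.2% lower on that choice. CDKN3 fell on both choices (log2 -3.37 and -2.80). AURKB and TYMS were thus called higher at 28 dpn on either choice of newborn arrays, in both cases from newborn levels that were mostly or wholly below background.

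**Figure D3:**
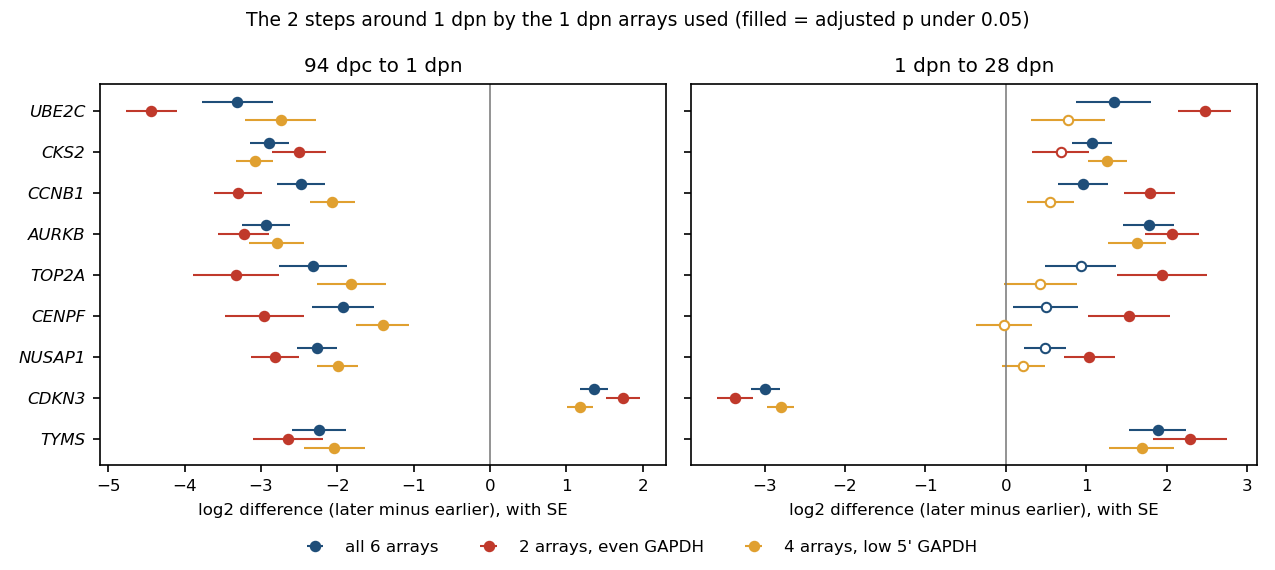
Differences (log2, with SE) of the 9 genes for the steps into and out of 1 dpn, with all 6 newborn arrays, the 2 with even GAPDH signal or the 4 with low 5' GAPDH signal; filled points passed a limma adjusted p of 0.05. Directions in the first step are the same for the 3 choices, and in the second step TOP2A, CENPF, NUSAP1, CCNB1 and UBE2C move towards 0 on the low 5' arrays. On the 2 arrays with even GAPDH signal CCNB1, AURKB, TOP2A, CENPF and TYMS are below background, so the plotted size of their differences is not exact.

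Some animals were high or low in several of the genes together. Among piglets, replicate 4 lay above the stage mean in 9 of 9 genes and was the highest in 5 of them. Replicate 3 lay above the mean in 0 of 9 and was the lowest in 6. Among newborns, replicate 3 lay above the mean in 8 and was the highest in 4, and replicate 5 was the highest in 3. Replicate 4 was the lowest newborn in 5. The median signal of all probe sets was 128 and 135 on newborn arrays 3 and 5, and 114 to 123 on the other newborn arrays. Among piglets it was 146 on replicate 3 and 140 on replicate 4. The part of such shifts of whole arrays was not tested. Fetal replicate 1 was the lowest in 5 of the 9 genes, and it stood at log2 -0.81 from the stage mean in TYMS and -0.35 in CDKN3. In 3 genes, however, it lay above the stage mean. Fetal replicate 3 was the highest in 4 genes and the lowest in 2. At 188 dpn TOP2A was highest in replicate 1 and TYMS in replicate 4. Only 1 of 4 TOP2A values and 0 of 4 TYMS values lay above background there, so whether these genes went together cannot be told. These counts describe single animals, and no test was made of them.

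**Figure D4:**
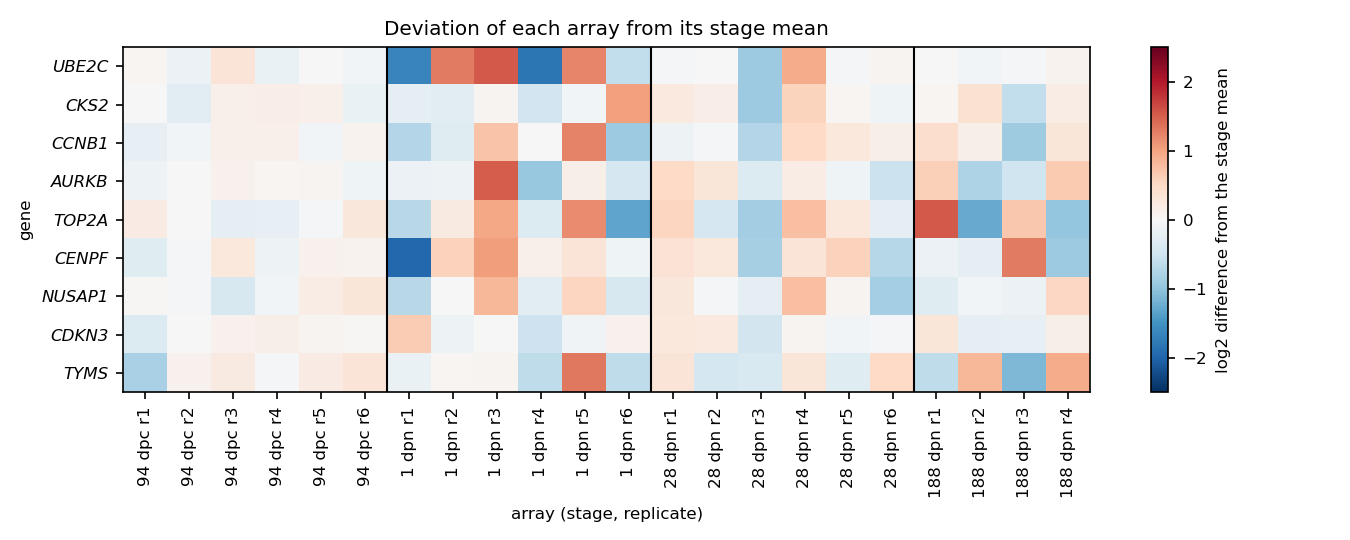
Deviation of each array from the mean of its own stage (log2, colour scale) for the 9 genes, with 1 column per animal and vertical lines between stages. Columns of 94 dpc are pale, whereas newborn replicates 3 and 5 are mostly red, newborn replicates 1, 4 and 6 mostly blue, and piglet replicates 3 and 4 blue and red.

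Other genes of mitosis and G2 were mostly lower at 1 dpn too. Of 67 such genes on a list, 30 were measured under 1 symbol, and from 94 dpc to 1 dpn 23 of the 30 were called lower and 0 higher (median log2 -1.81), beside 21.7% and 10.9% of all probe sets. On only the newborn arrays with even GAPDH signal the counts were 22 and 1, beside 17.6% and 7.79% of all probe sets. RACGAP1, a regulator of cytokinesis, fell 7.24-fold (1358 to 188, log2 -2.86, SE 0.27, limma adjusted p = 9.79e-08). LMNB1, a lamin of the nuclear envelope, fell 5.81-fold (1329 to 240) and PTTG1, the gene of securin, fell 5.13-fold (631 to 113). TACC3, a spindle protein, fell 5.32-fold (479 to 90.9), and the kinase MELK fell from 210 to 34.9, which is below background.

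From 1 dpn to 28 dpn 9 of the 30 were called higher and 1 lower (median log2 0.51), beside 13.9% and 8.39% of all probe sets. On the even newborn arrays 10 were called higher and 0 lower, beside 11.2% and 5.39% of all probe sets. MAD2L1, of the spindle checkpoint, rose from 192 to 401 (log2 1.06, SE 0.20, limma adjusted p = 0.000641), and LMNB1 rose from 240 to 465. The kinetochore gene NUF2 was called higher too, but its mean signals of 7.64 and 40.5 were both below background. The gene called lower was BUB3 (log2 -0.56), which was singled out after its value was seen. From 28 dpn to 188 dpn 4 of the 30 were called lower and 0 higher (median log2 -0.66), beside 8.2% and 3.65% of all probe sets. The 4 were HMGB2 (794 to 268), a chromatin protein, the cyclin gene CCNA2 (80.8 to 28.6, all oldest pigs below background), MELK and PTTG1. Over the whole span 25 were called lower and 1 higher (median log2 -1.56), beside 22.5% and 13.6% of all probe sets. HMGB2 fell 11.3-fold (3147 to 268), TACC3 fell from 479 to 46.1, and CCNB2, the other B-type cyclin, fell from 249 to 27.2. MAD2L2 (log2 0.63), seen only after the count, was the gene called higher.

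Genes of DNA replication were mostly lower at 188 dpn than at 94 dpc. Of 61 listed 36 were measured, and 18 were called lower at 1 dpn and 0 higher, beside 21.7% and 10.9% of all probe sets. Their median was log2 -0.68, against -0.08 for all probe sets. On the newborn arrays with even GAPDH signal the counts were 13 and 0, beside 17.6% and 7.79% of all probe sets. RRM2, a subunit of the enzyme that makes deoxynucleotides, fell 3.69-fold (352 to 106). MCM2, of the replicative helicase, fell 2.94-fold (742 to 264), RFC3, of the clamp loader, 2.59-fold (597 to 224), and PCNA, the sliding clamp, 2.46-fold (1560 to 638). CLSPN, which serves the replication checkpoint, fell from 120 to 44.3, below background. From 1 dpn to 28 dpn 1 of the 36 was called higher, RPA2 of the single-strand binding protein (395 to 744, log2 0.87, limma adjusted p = 0.00296), and 1 lower, DNMT1, the enzyme that copies DNA methylation (1026 to 315, log2 -1.66, limma adjusted p = 4.15e-07). Of all probe sets 13.9% were called higher and 8.39% lower in this step. On the even newborn arrays 2 of the 36 were called in each direction, beside 11.2% of all probe sets higher and 5.39% lower. TYMS was thus called higher in a step in which 1 of these 36 was, although the difference between TYMS and the list was not tested. From 28 dpn to 188 dpn 8 of the 36 were called lower and 0 higher, beside 8.2% and 3.65% of all probe sets. Among the 8 were MCM5 (157 to 30.3), MCM3 (179 to 62.3) and RRM2 (135 to 36.4), all ending below background. Over the whole span 28 were called lower and 1 higher (median log2 -1.11), beside 22.5% and 13.6% of all probe sets. The gene called higher was MCM4, whose mean signal went from 17.4, with all fetuses below background, to 109. DNMT1 fell 9.19-fold over that span (1256 to 121).

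The partners of UBE2C in the anaphase-promoting complex were called at shares not far from those of all probe sets. Of 17 listed 9 were measured, and 3 were called lower at 1 dpn, beside 21.7% of all probe sets: ANAPC15 (log2 -0.80, SE 0.24), ANAPC13 (-0.69, SE 0.20) and ANAPC4 (-0.69, SE 0.19). In the second step ANAPC16 was called lower (log2 -1.13) and CDC26 higher (0.66), beside 8.39% and 13.9% of all probe sets. In the third step 0 of the 9 were called, beside 8.2% of all probe sets lower and 3.65% higher. Over the whole span ANAPC16 (log2 -0.73) and ANAPC2 (-0.51) were lower and CDC26 was higher (1.01), beside 22.5% and 13.6% of all probe sets. The median of the 9 over that span was log2 -0.39, beside log2 -3.26 for UBE2C, although this difference was not tested.

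Upstream of S phase, 7 of 15 listed G1 cyclins, kinases and their transcription factors were measured. CCND2, the cyclin D2 with which cells leave G1, had mean signals of 3829 (SD 387), 1634 (SD 878), 873 (SD 166) and 201 (SD 64.2) from the youngest to the oldest group. It fell in each of the 3 steps (log2 -1.37, -0.75 and -2.06, limma adjusted p = 0.000255, 0.0371 and 9.14e-05) and 18.2-fold in all. No other gene of this list was called in a single step. The count was thus 1 of 7 lower in each step, beside 21.7%, 8.39% and 8.2% of all probe sets. Over the whole span 2 were called lower and 1 higher, beside 22.5% and 13.6% of all probe sets. These counts are not far from the shares of all probe sets and give no result about the list. Besides CCND2, MYC fell 4.10-fold over that span (897 to 211), and E2F3 rose 1.85-fold (139 to 275).

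Cell cycle inhibitors included genes called in either direction. Of 27 listed 19 were measured. At 1 dpn 6 were called lower and 3 higher, shares not far from the 21.7% and 10.9% of all probe sets. On the even newborn arrays 4 were called lower and 3 higher, beside 17.6% and 7.79% of all probe sets. WEE1, the kinase that restrains CDK1, fell 3.04-fold (1002 to 324, log2 -1.61, SE 0.16, limma adjusted p = 1.72e-07). GADD45B (689 to 329), BTG1 (7314 to 3191), CCNG2 (1360 to 634) and CDKN2C (114 to 37.2, below background) also fell. The 3 called higher were CDKN1A (log2 0.76), TOB1 (0.75) and LIN37 (1.17). CDKN1A, the inhibitor p21 of cyclin-dependent kinases, shared the newborn peak of CDKN3: it then fell 3.24-fold to 28 dpn (13241 to 4060, log2 -1.69, SE 0.22, limma adjusted p = 9.6e-06). By 28 dpn 2 of the 19 were called lower, CDKN1A and LIN37 (log2 -1.41), and 5 higher, among them CCNG1 (5685 to 20926, log2 1.93) and TOB1 (1583 to 4681, log2 1.59). All probe sets had shares of 8.39% lower and 13.9% higher in that step. In the third step 0 of the 19 were called, beside 8.2% of all probe sets lower and 3.65% higher. Over the whole span 5 were called higher, with CCNG1 up 6.54-fold, TOB1 up 5.32-fold and BTG2 up 5.15-fold, and WEE1 (log2 -1.74) and CDKN1A (-1.31) were called lower. The shares of all probe sets over that span were 13.6% higher and 22.5% lower.

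**Figure D5:**
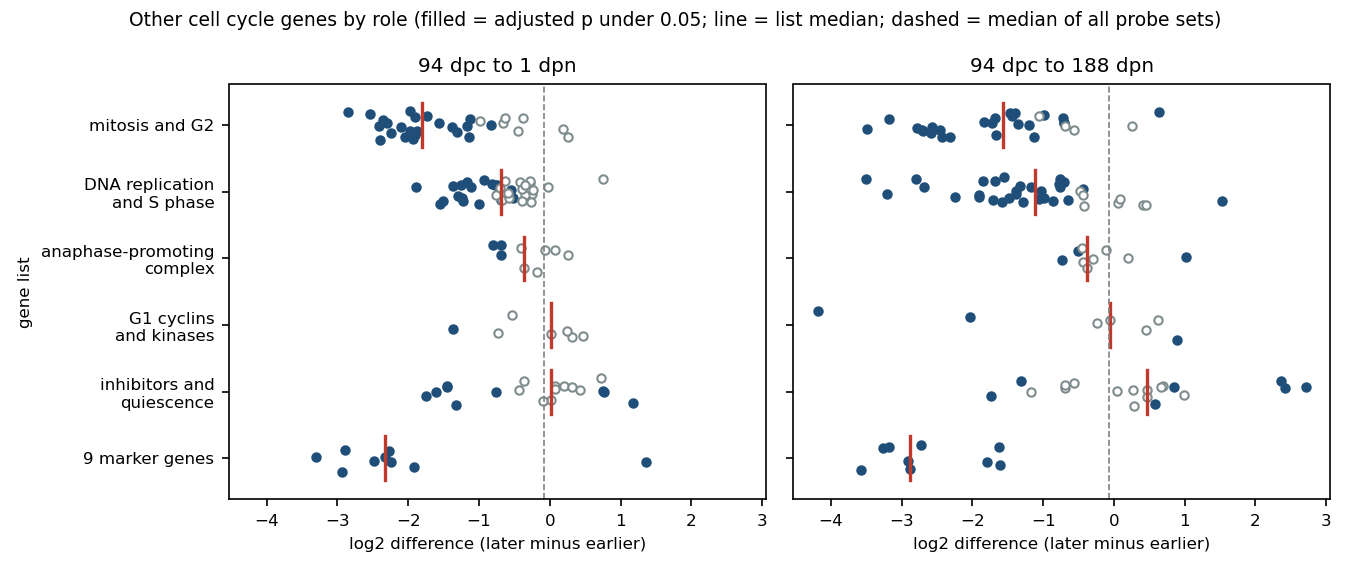
Differences (log2, later minus earlier) of the measured genes of 5 cell cycle lists and of the 9 marker genes, from 94 dpc to 1 dpn and from 94 dpc to 188 dpn, with 1 point per gene, a red line at each list's median and a dashed line at the median of all probe sets. The mitosis list (medians -1.81 and -1.56) lies further left than the list of anaphase-promoting complex subunits (-0.36 and -0.39), and the inhibitors lie on both sides of 0.

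Markers of some other cell types were called in the same directions as most of these genes, and those of others were not. Of 13 measured endothelial markers of 14 listed, 9 were called lower from 94 dpc to 1 dpn, 9 higher from 1 dpn to 28 dpn and 7 lower from 28 dpn to 188 dpn, beside 21.7%, 13.9% and 8.2% of all probe sets. PECAM1, CDH5, CLDN5, RAMP2 and ESAM, singled out after their values were seen, were called in all 3 steps. On the newborn arrays with even GAPDH signal 7 were lower at 1 dpn and 7 higher at 28 dpn, beside 17.6% and 11.2% of all probe sets. The summed signal of the 13 endothelial markers ranged from 16505 to 19370 at 94 dpc and from 5669 to 7369 at 1 dpn. It ranged from 9949 to 14422 at 28 dpn and from 4497 to 6107 at 188 dpn. Of 13 fibroblast and matrix markers 10 were lower at 1 dpn, 2 were higher and 1 lower at 28 dpn, and 7 were lower at 188 dpn. On the even newborn arrays 9 were lower at 1 dpn and 5 higher at 28 dpn, beside 17.6% and 11.2% of all probe sets. The summed signal of the fibroblast and matrix markers went from 73829 to 103640 in fetuses and from 25056 to 47825 in newborns. It went from 34033 to 50757 in piglets and from 20375 to 34765 in the oldest pigs.

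Among 10 macrophage markers 3 were lower at 1 dpn, 5 higher at 28 dpn and 2 lower at 188 dpn. On the even newborn arrays 1 was lower at 1 dpn and 1 higher at 28 dpn, beside 17.6% and 11.2% of all probe sets. The summed signal of the macrophage markers was 3972 to 4918, 1997 to 4422, 3564 to 13833 and 2032 to 7516 at the 4 ages. With all arrays the shares of all probe sets were 21.7% lower and 10.9% higher at 1 dpn, and 8.39% and 13.9% at 28 dpn. From 28 dpn to 188 dpn 8.2% were lower, and over the whole span 22.5% were lower and 13.6% higher. The macrophage count at 1 dpn was thus not far from the share of all probe sets. Of 8 myogenic progenitor genes 5 were lower and 1 higher at 1 dpn, 1 was higher at 28 dpn, and 4 were lower and 2 higher over the whole span. The regulators MYF5 and MYOD1 were lower at 1 dpn (log2 -1.14 and -1.03) and over the whole span (-2.96 and -2.59), whereas MYF6 was higher at 28 dpn (0.99) and over the whole span (2.32). PAX3 was called higher at 1 dpn, from a mean signal of 21.7, with all fetuses below background, to 85.4. At 1 dpn 4 of 13 endothelial, 1 of 13 fibroblast and matrix, 1 of 10 macrophage and 0 of 8 progenitor markers had mean signals below background. Skeletal muscle markers went the other way in the first step, with 1 of 16 lower and 9 higher at 1 dpn. At 28 dpn 10 were higher and 0 lower, the same direction as most of the 9 genes. On the even newborn arrays 3 and 14 were higher in these 2 steps, beside 7.79% and 11.2% of all probe sets. From 28 dpn to 188 dpn 0 of the 16 muscle markers were called, and over the whole span 14 were higher and 0 lower. Of 8 adipocyte markers 1 was lower and 3 higher at 1 dpn, and of 10 lymphocyte markers 0 and 2. Of 16 hepatocyte markers 3 were lower and 1 higher at 1 dpn, shares not far from those of all probe sets. Their summed signals were 7929 to 58663 in fetuses and 2588 to 13651 in newborns. The part of these cell types in the levels of the 9 genes was not tested. Without the 2 arrays with the most liver and pancreas transcripts (fetal replicate 1 and newborn replicate 3), 8, 5, 6 and 9 members were called in the 4 directions named above, the same counts as with all arrays.

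The genes nearest to the mean course of the 9 were found among 7727 named probe sets above background, by the root mean square difference of log2 values over the 22 arrays after centring each gene. The nearest was STMN1, a microtubule regulator that is itself on the mitosis list, at log2 0.29, where the median candidate stood at 1.14. Its mean signals were 11266 (SD 547), 3103 (SD 1300), 3861 (SD 999) and 2315 (SD 645). LAMB2, a laminin chain of basement membranes, and the septin SEPT11 followed at 0.38 each. EPB41L2, RACGAP1, NCALD, LOC100526084 and MARCKS each stood at 0.41. Of the 9 genes themselves NUSAP1 (0.30) and CCNB1 (0.35) lay closest to their common mean, and CDKN3 (1.57) lay farther from it than the median candidate.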

How the data were processed

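Per the labels' protocols, RNA of 22 animals was extracted in TRI Reagent, freed of DNA, purified with an RNeasy kit and labelled as biotinylated cRNA for a porcine Affymetrix array. The deposited table holds 1 signal intensity per probe set and array on a linear scale (1 to 111760), which the authors made in GCOS 1.1.1, per the submitters' processing notes. After trimming 2% at each end the mean was 500.1 to 500.2 on every array, so the deposited intensities had been scaled to a common mean. No further normalization was applied.

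Of 24123 probe sets 124 controls were left out. Of the 23999 tested, 10069 carried 1 symbol, 198 several and 13732 none, from the platform annotation; the gene identifier of 9961 was found in the RefSeq table. The comparisons used limma 3.58.1 (R 4.3.3) on log2(signal + 16), with 1 mean per stage and moderated variances, and p-values were adjusted by Benjamini-Hochberg within each test over all 23999 probe sets. A call is an adjusted p under 0.05. Fold changes on this scale understate the change of dim genes. Where all arrays of the dimmer stage were below background the fold is a bound against it, and where only their mean was below, both signals are given. The number of arrays (6, 6, 6 and 4) limits precision. Lists use the probe set with the highest mean signal per gene. Of each list the text names the largest called differences per comparison, up to 5 in the first and 3 in the others; MCM4, LIN37, MYF5, MYOD1, MYF6 and PAX3 were named after their values were seen. The members and lists were chosen with earlier results of these data known. The fitting code was tested on simulated data. Alternatives were quantile normalization, centring on the array median, pseudocounts of 1 and 64, trended variances, array weights, 2 stages fitted alone, brighter probe sets, the mean of a gene's probe sets, choices of arrays by GAPDH signal or liver and pancreas transcripts, a GAPDH covariate and each sample left out. Gene positions and sequences were not used here.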

Additional observations from a re-analysis of the deposited data

Results flagged for a closer look

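A sample was singled out where it stood apart from the nearest other sample of its stage by more than Dixon's 95% critical share of the stage's range. Gaps and ranges were taken on the log2(signal + 16) scale, while the values given are signals. Of 48 sets of samples checked (12 probe sets at 4 stages) 5 held such a sample, where 2.4 are expected by chance. CKS2 was highest in newborn replicate 6, at a signal of 513 against 256 for the next (gap 0.635 of the range). CDKN3 was lowest in fetal replicate 1, at 589 against 750.1 (0.683). TYMS was lowest in the same fetus, at 67.7 against 125 (0.668), and highest in newborn replicate 5, at 60.9 against 16.5 (0.635), a value still below background. The dimmer TYMS probe set was highest in newborn replicate 3, at 92.5 against 16.6 (0.729). All 5 samples were kept.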

How the results depend on the processing

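The 9 genes had 30 called differences in the 4 main comparisons, and 35 alternatives gave 1046 values of them: 1007 kept their direction and their call, 39 kept the direction but not the call, and 0 turned. TYMS is too dim to enter the setting limited to brighter probe sets. The 8 falls from 94 dpc to 1 dpn, the rise of CDKN3 and the 9 falls over the whole span kept their calls in every alternative that gave a value. From 1 dpn to 28 dpn the count of genes called higher, 5, was 3 after quantile normalization, 3 with each array centred on its median, 3 with only the 2 stages fitted, 3 on the newborn arrays with low 5' GAPDH signal (chosen after seeing the data) and 3 to 5 without 1 sample. UBE2C lost this call in 19 alternatives (highest limma adjusted p = 0.241), CCNB1 in 10 (0.185) and CKS2 in 2 (0.217). The fall from 28 dpn to 188 dpn was lost for CCNB1 in 4 alternatives (highest limma adjusted p = 0.126), for TYMS in 2 (0.102), for CENPF in 1 (0.0614, without 188 dpn replicate 4) and for NUSAP1 in 1 (0.0502, mean of its probe sets). CDKN3 from 28 dpn to 188 dpn, not called at log2 0.01, was -0.0158 with array weights, -0.0243 with the GAPDH covariate and -0.0891 to 0.0947 without 1 sample, and CENPF from 1 dpn to 28 dpn was -0.0218 on the newborn arrays with low 5' signal. The causes were not tested. No paired analysis was possible because the labels give no number shared between stages. Signal near background limits TYMS, AURKB, TOP2A and CENPF at 1 dpn and 188 dpn, and CCNB1 and UBE2C at 1 dpn.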
